A study of Triticum aestivum with 2 samples.

Results

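Photosystem II and the antenna proteins that feed it were represented by 9 of the 190 probe sets in the study's lists of hybridizing wheat transcripts. They comprised the Q(B) protein or D1 (2 probe sets), D2, protein K, protein M (2 probe sets), protein Z, an oxygen-evolving enhancer protein and a chlorophyll a/b binding protein, or 7 proteins in all. The members were chosen by the putative function given to each probe set, and cytochrome b559 was left out. The lists themselves were selected on measured values of the same hybridizations, namely Present calls and a signal above the spiked-in control bioB. Of the 9 members, 8 stood among the 110 listed sense-antisense pairs and the oxygen-evolving enhancer stood among the 80 listed as antisense-specific. That a member was above a threshold is therefore a description and not a finding. The paper cautions that the 80 need not be antisense transcripts, since their probes may be incorrectly oriented. The putative functions are best database hits, so the oxygen-evolving enhancer and the chlorophyll a/b binding protein could not be assigned to a particular gene of their families.

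Total RNA of the hexaploid wheat 'Chinese Spring' was used, combined from germinated seed kept in the dark, shoot, flag leaf, and spikes before and after anthesis (5 tissues). The same pool was hybridized to 2 Wheat Genome Arrays, 1 for each target preparation. In the 3'IVT assay, oligo(dT)-primed cDNA was transcribed into labeled cRNA, which reports the sense strand, whereas the WT assay used random primers and labeled the opposite strand, which reports the antisense strand. There was 1 array per assay, so the error from sample to sample is not known, and neither assays, genomes nor genes could be tested against each other. As the RNA was pooled, no member has an array value in a single tissue, and a lower signal could stand for fewer green cells or for less RNA in each. The paper's strand-specific RT-PCR for the D1 member TaAffx.128757.1 detected sense and antisense transcripts in each of the 5 tissues. No other member was among its RT-PCR targets.

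Photosystem II is the thylakoid complex that uses light to take electrons from water and pass them to plastoquinone. Its reaction centre is a heterodimer of D1 and D2, which bind the cofactors of charge separation. Small subunits such as K, M and Z surround it, extrinsic proteins called oxygen-evolving enhancers shield the manganese cluster that splits water, and chlorophyll a/b binding proteins form the light-harvesting antenna. In plants D1, D2, K, M and Z are encoded by the plastid genes psbA, psbD, psbK, psbM and psbZ, while the oxygen-evolving enhancers and the chlorophyll a/b binding proteins are encoded in the nucleus and imported. The members therefore divided into 7 plastid-encoded and 2 nuclear-encoded probe sets.

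Signals are given as deposited, on the linear MAS5 scale of each array, and as the excess over bioB, which is the log2 signal minus that of the lowest of the 9 bioB probe sets on the same array. The lowest bioB probe set had a signal of 828 on the 3'IVT array and 37298 on the WT array. Of 61115 wheat probe sets, 17.3% lay above bioB on the 3'IVT array, 0.367% did on the WT array and 0.208% on both. Of the 9 members, 8 were above on the 3'IVT array, 9 on the WT array and 8 in both. They were chosen by such thresholds on the same hybridizations, so the counts are a description. The study used another signal summary and Present calls, so its thresholds and these need not agree for every probe set. Probe sets for the same region of a spiked-in control differed with an SD of 0.32 log2 units on the 3'IVT array and 0.26 on the WT array (27 probe sets of 9 regions). This spread was the only one available and served as the yardstick for differences within an array. A signal depends on the probes of its set too, so an order of members is one of signals and not of transcript amounts. As a marker of green tissue, the 2 listed RUBISCO small subunit pairs had a median 3'IVT excess of 5.78, and they too were listed for being above bioB. Of the seed storage protein probe sets named as gliadins or glutenins, 3 of 11 were above bioB on the 3'IVT array.

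The 2 reaction centre proteins had opposite patterns. D1, the subunit that binds the mobile quinone at the Q(B) site and is replaced continuously in the light, was bright on the 3'IVT array at both of its probe sets. TaAffx.128757.1.S1_at had a signal of 26814 on the 3'IVT array and 144280 on the WT array, an excess over bioB of 5.02 and 1.95. TaAffx.128757.3.S1_s_at had 21595 and 289170, an excess of 4.71 and 2.95. The 2 differed by 0.31 log2 units on the 3'IVT array, below 0.46, the SD of a difference between 2 control probe sets. On the WT array they differed by 1.00, above the corresponding SD of 0.37.

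D2, the partner of D1, gave the reverse order. TaAffx.28455.1.S1_at had a signal of 1388 on the 3'IVT array, an excess of 0.75, and 732980 on the WT array, an excess of 4.30. It was the plastid-encoded member nearest to the 3'IVT threshold, and 12 of the 61115 wheat probe sets were brighter on the WT array (rank 13). Its 3'IVT signal was 19.3-fold below that of the first D1 probe set, whereas its WT signal was 5.08-fold above. The excess of D2 on the WT array lay 0.25 log2 units below the brightest wheat probe set of that array.

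Among the small core subunits, protein K resembled D2, with its larger excess on the WT array. Proteins M and Z had their larger excess on the 3'IVT array, as D1 did. Which assay has the larger excess depends on the bioB signal of each array, so it does not compare amounts of sense and antisense transcript. For protein K, a single-helix subunit near the inner antenna, TaAffx.132743.1.S1_at had a signal of 5228 on the 3'IVT array and 753010 on the WT array, an excess over bioB of 2.66 and 4.34. Its WT signal ranked 10 of 61115 and differed from that of D2 by 0.039 log2 units, well within the control SD. The 2 probe sets for protein M, a single-helix subunit at the interface of the photosystem II dimer, had similar WT signals and different 3'IVT signals. TaAffx.48564.1.S1_s_at had signals of 19192 and 94445 (excess 4.54 and 1.34), and TaAffx.48564.2.S1_s_at had 7256 and 103770 (excess 3.13 and 1.48). Their difference of 1.40 log2 units on the 3'IVT array was above the SD of a difference between 2 control probe sets (0.46). That of 0.14 on the WT array was below it (0.37). The probe set for protein Z, which helps to hold the antenna to the core, had the brightest 3'IVT signal of all members. Its probes, like those of both M probe sets, are shared between transcripts, so the signal need not come from a single transcript. TaAffx.128712.18.S1_s_at had a signal of 46012 on the 3'IVT array, rank 6 of 61115, and 72890 on the WT array, an excess of 5.80 and 0.97.

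The 2 nuclear-encoded members were unlike each other on the 3'IVT array. The oxygen-evolving enhancer TaAffx.26342.1.S1_at had a signal of 246 on the 3'IVT array and 77820 on the WT array, an excess over bioB of -1.75 and 1.06. It was the only member below the 3'IVT threshold, at the percentile 65.8 of the wheat probe sets, while 1 of 64 probe sets for reporter genes foreign to wheat was brighter than it. The chlorophyll a/b binding protein Ta.20639.3.S1_a_at had 18407 and 52240, an excess of 4.48 and 0.49, and was the member nearest to the WT threshold. On the WT array the enhancer exceeded the chlorophyll a/b binding protein by 0.57 log2 units.

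**Figure D1:**
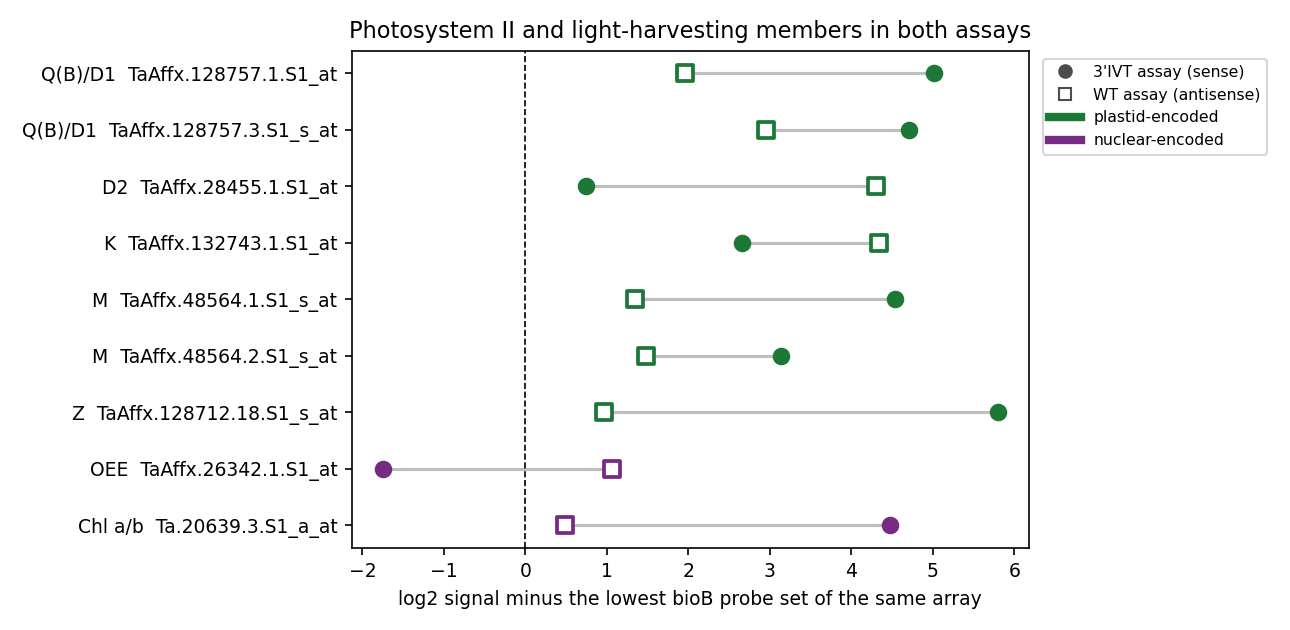
Each line is 1 of the 9 members, and the horizontal axis is the log2 signal minus the lowest bioB probe set of the same array (dashed line at 0). Filled circles are the 3'IVT assay and open squares the WT assay, 1 array each, in green for plastid-encoded and purple for nuclear-encoded members; D2, K and the oxygen-evolving enhancer (OEE) have the square to the right of the circle and the other 6 members have it to the left.

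Ordered by the 3'IVT assay the members ran from Z (5.80) through both D1 probe sets, the first M probe set, the chlorophyll a/b binding protein, the second M probe set and K to D2 (0.75) and the oxygen-evolving enhancer (-1.75). The 4 positions from the first D1 probe set to the chlorophyll a/b binding protein were separated by gaps of 0.31, 0.17 and 0.060 log2 units. Each gap was below 0.46, the SD of a difference between 2 control probe sets. On the WT array the order was K, D2, D1 (4.34, 4.30, and 2.95 and 1.95), then M, the enhancer, Z (0.97) and the chlorophyll a/b binding protein (0.49). Here K did not differ from D2 beyond the corresponding SD of 0.37, nor did the neighbouring values from the second M probe set to Z, which were 0.14, 0.28 and 0.094 apart. Across the 7 plastid-encoded members the order in the 2 assays was largely opposed, with a Spearman rho of -0.68 (n = 7, across probe sets of 2 shared arrays, 2 of the genes being counted with 2 probe sets). All 9 members had a rho of -0.25, the 9 listed probe sets of photosystem I -0.77, the other 102 listed pairs -0.41 and all wheat probe sets 0.28. The study listed pairs only where both assays passed its thresholds, and the enhancer where the WT assay alone did. This choice bears on every value but the last.

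Set by genome, the plastid-encoded members had a median excess over bioB of 4.54 on the 3'IVT array (0.75 to 5.80, n = 7) and 1.95 on the WT array (0.97 to 4.34). The nuclear-encoded members had 4.48 and -1.75 on the 3'IVT array, a median of 1.36, and 0.49 and 1.06 on the WT array, a median of 0.77 (n = 2). The medians thus differed by 3.17 log2 units on the 3'IVT array and by 1.18 on the WT array, with the plastid-encoded members higher in both. All 7 plastid-encoded members were listed for passing both assays, whereas the enhancer was listed for passing the WT assay alone. Its low 3'IVT value, which lowers the nuclear median, is bound up with that listing, so the differences are a description. The assays were primed differently, with oligo(dT) and with random primers, and how well each captures plastid or nuclear RNA was not tested. Both differences depended on the processing. The WT difference was 0.70 after quantile normalization and 3.24 without probe sets whose probes are shared between transcripts. The 3'IVT difference was 4.41 without those probe sets and 2.44 with means in place of medians. The nuclear WT median turned to -0.18 and -0.63 with the median and the highest bioB probe set as threshold. The values of the groups overlapped in both assays, since the chlorophyll a/b binding protein lay among the plastid-encoded members on the 3'IVT array and the enhancer lay above Z on the WT array. The median of the nuclear-encoded members on the 3'IVT array stands for neither of them, and it became -1.75 when the chlorophyll a/b binding protein, a shared probe set, was left out. On the WT array 5 of the 7 plastid-encoded probe sets exceeded both nuclear-encoded ones by more than 0.37 log2 units, namely K, D2, both for D1 and the second for M. The members were listed for their WT signal in this same hybridization, and probe sets are not replicates of a genome. This count is therefore a description.

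A bright sense signal went with a brighter WT signal over the whole array, which gives the members a background. Of the 50554 wheat probe sets at or below the 3'IVT threshold, 0.192% were above the WT threshold, and of the 131 with a 3'IVT excess over 5, 16.8% were. The median WT excess was -7.41 in the former and -2.41 in the latter. These bins, 1 log2 unit wide above the threshold, were chosen after seeing the data. The members were listed for a WT signal above bioB, which few probe sets of any bin had, so their place at the top of a bin was set by that choice and is given as a description. Between 3'IVT excesses of 0 and 1, where D2 lay, 22 of 4409 probe sets were above the WT threshold and 1 was brighter than D2. In the bin of K, from 2 to 3, 19 of 1747 were above and 2 were brighter than K. In the bin from 4 to 5, 20 of 441 were above the WT threshold. Of these, 2 were brighter than the D1 probe set TaAffx.128757.3.S1_s_at, 7 than the first M probe set and 14 than the chlorophyll a/b binding protein. Over 5, 22 of 131 were above, with 2 brighter than TaAffx.128757.1.S1_at and 9 brighter than Z.

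**Figure D2:**
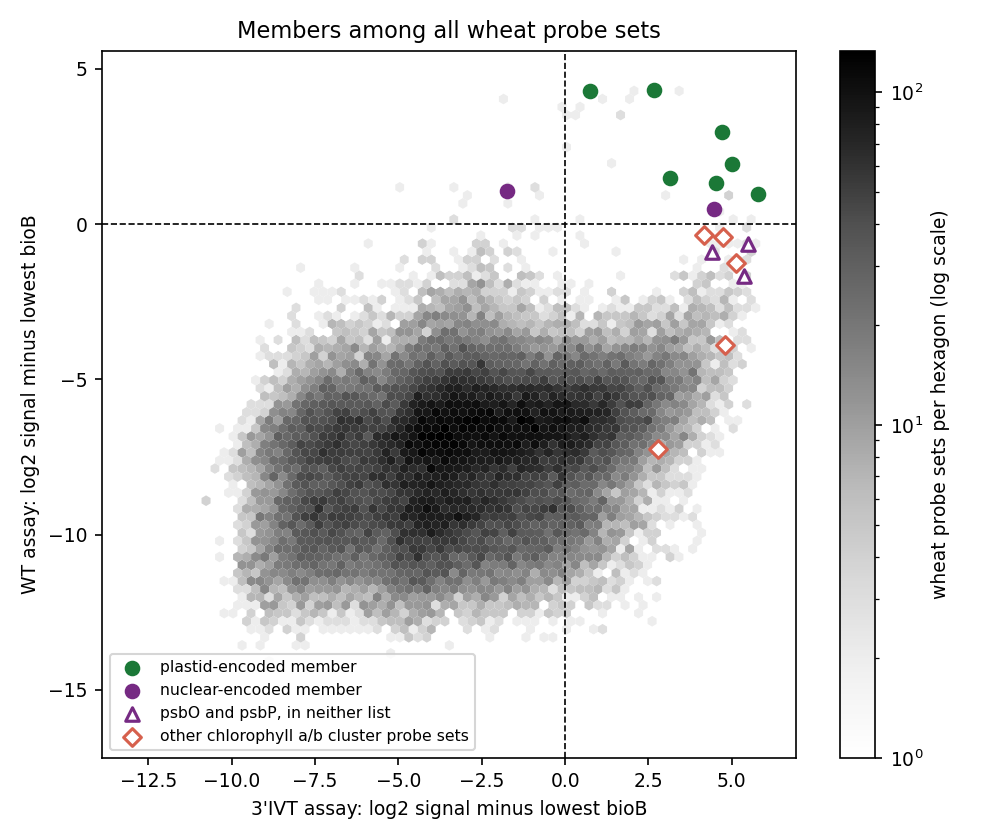
All 61115 wheat probe sets are shown as grey hexagons, shaded by their number on a log scale, with the excess over the lowest bioB probe set on the 3'IVT array on the horizontal and on the WT array on the vertical axis, in log2 units. Filled circles are the members, triangles the 3 probe sets named psbO or psbP and diamonds the 5 further probe sets of the chlorophyll a/b design cluster; D2 and K lie at the top of the plot, and the 8 open symbols all lie right of the 3'IVT threshold and below the WT threshold (dashed lines at 0).

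The array carries further probe sets in the members' design clusters, the groups of related sequences that share the first number of a probe set name. The 9 members belong to 7 clusters that hold 36 probe sets, so there were 27 further ones, which were not selected for naming a photosystem II protein. Of these, 14 were above bioB on the 3'IVT array, 7 on the WT array and 5 in both, against shares of 17.3%, 0.367% and 0.208% on the array. The clusters entered through members listed for passing the study's thresholds, so these counts are a description. Of the 27, 10 have probes shared between transcripts, and these 10 supplied 8, 4 and 3 of the counts. The study listed 6 of the 7 that were above on the WT array, under unknown or hypothetical functions. A shared cluster number does not show that 2 probe sets read the same gene, and 11 of the 27 were above neither threshold.

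The cluster of protein Z was the largest and the most uneven, with 13 further probe sets. TaAffx.128712.4.S1_x_at (48281 on the 3'IVT array and 43175 on the WT array) and TaAffx.128712.2.S1_s_at (35495 and 37839) resembled Z, bright on the 3'IVT array and just above bioB on the WT array, by 0.21 and 0.021 log2 units. Both, like the Z member, have probes shared between transcripts. TaAffx.128712.19.S1_s_at (1902 and 598810) had the pattern of D2 and K instead. TaAffx.128712.3.S1_at (126 and 410110) and TaAffx.128712.5.A1_s_at (284 and 524130) were bright on the WT array and below bioB on the 3'IVT array. The last of these carries the letter A, by which the array's naming marks a design sequence in antisense orientation. No value here checks that orientation. TaAffx.128712.1.S1_at (1392 and 33254) was above bioB on the 3'IVT array and just below it on the WT array, with an excess of -0.17. The other 7 were above neither threshold.

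Within the cluster of protein K, the pattern of the member was shared by TaAffx.132743.10.S1_at, an unknown transcript with 2906 on the 3'IVT array and 594360 on the WT array (excess 1.81 and 3.99). TaAffx.132743.1.S2_at, designed on the same sequence as the K member, was lower in both assays, with 1218 and 97549 (excess 0.56 and 1.39). It lay 2.10 log2 units below the member on the 3'IVT array and 2.95 below it on the WT array. TaAffx.132743.6.S1_x_at (2310 and 1859) was above on the 3'IVT array alone.

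The D1 cluster held a sharp contrast between 2 probe sets of a single design sequence. TaAffx.128757.3.S1_at had 1486 on the 3'IVT array and 789 on the WT array, while the member TaAffx.128757.3.S1_s_at, whose suffix marks probes shared between transcripts, had 21595 and 289170. The member was 14.5-fold brighter on the 3'IVT array. No fold is given for the WT array, where 6 of 64 foreign reporter probe sets were brighter than TaAffx.128757.3.S1_at. TaAffx.128757.5.S1_at (872 and 6042) was at the 3'IVT threshold, with an excess of 0.075. None of the 3 further probe sets of this cluster was above the WT threshold. The 1 further probe set of the protein M cluster was above neither, and D2 and the oxygen-evolving enhancer were alone in their clusters.

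The further probe sets of the chlorophyll a/b cluster had 3'IVT excesses from 2.80 to 5.12. These 5 further probe sets were all above bioB on the 3'IVT array and none was above it on the WT array, so that the listed member was the only 1 of 6 to pass both thresholds. With the median or the highest bioB probe set as threshold the member's WT excess was -0.47 or -0.92, and none of the 6 passed both. Ta.20639.1.S1_x_at had signals of 21853 and 27722, and Ta.20639.3.S1_x_at, from the design sequence of the member, had 14997 and 29084, with a WT excess of -0.43 and -0.36. The member exceeded the latter by 0.84 log2 units on the WT array and by 0.30 on the 3'IVT array. The 3 probe sets with the letter A, Ta.20639.2.A1_at (5764 and 244), Ta.20639.2.A1_a_at (28729 and 15545) and Ta.20639.2.A1_x_at (23199 and 2532), were all bright on the 3'IVT array. On the WT array the first of them was below the median wheat signal of 258.

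**Figure D3:**
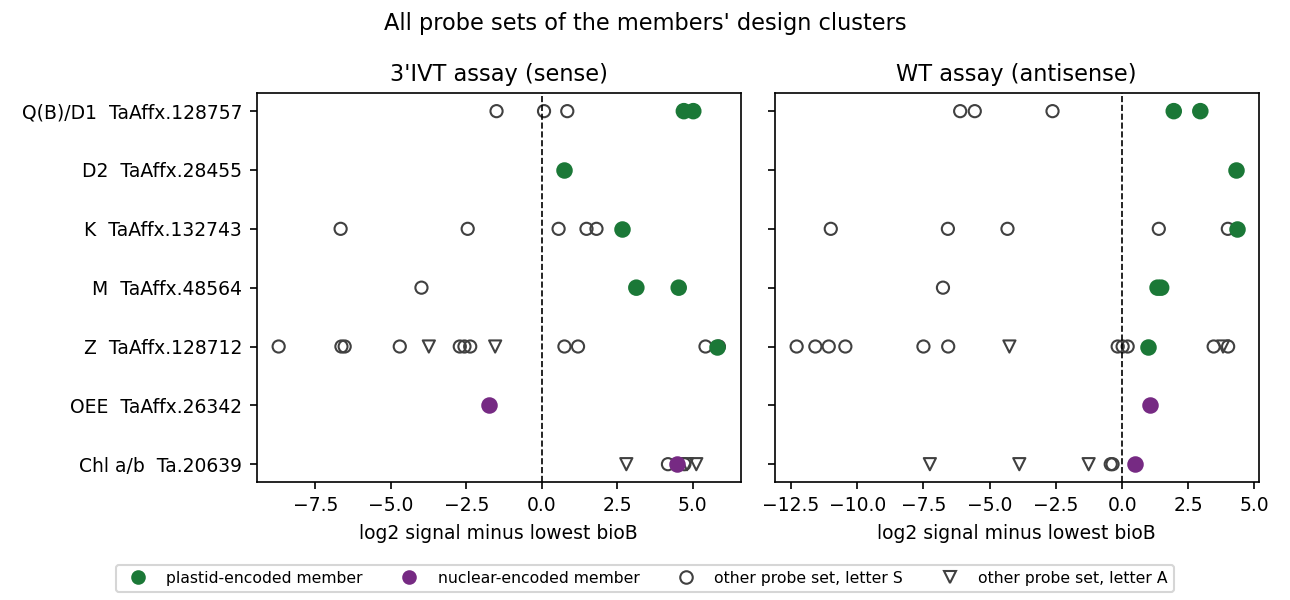
Every probe set of the 7 design clusters is plotted by its log2 signal minus the lowest bioB probe set (horizontal axis, dashed line at 0), with the 3'IVT assay on the left and the WT assay on the right. Filled circles are the 9 members, open circles further probe sets with a sense-lettered and triangles those with an antisense-lettered design sequence; all 6 probe sets of the chlorophyll a/b cluster lie above the threshold on the left, and 1 does on the right.

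A search of the platform annotation and of RefSeq synonyms for photosystem II and light-harvesting genes found 3 probe sets, all for extrinsic proteins of the oxygen-evolving complex encoded in the nucleus. This list did not use the signals. Ta.841.1.S1_a_at reads the gene LOC543291 (OEE1 or PsbO, the manganese-stabilizing protein) and had signals of 37381 on the 3'IVT array and 23793 on the WT array. Ta.85.1.S1_at and TaAffx.120874.1.S1_x_at read LOC543290 (OEE2 or PsbP) and had 34172 and 11803, and 17521 and 19905. All 3 were above bioB on the 3'IVT array, by 5.50, 5.37 and 4.40 log2 units, against 17.3% of the array. None was above it on the WT array, where their excess was -0.65, -1.66 and -0.91, against 0.367% of the array above. The listed enhancer TaAffx.26342.1.S1_at thus had a 3'IVT signal 152-fold below that of PsbO and a WT signal 3.27-fold above it. The orientation of the enhancer's probes was not tested. Any of these 3 above both thresholds could have entered the study's list, so for the WT array their count is a description. Together with the 5 further chlorophyll a/b probe sets they make 8 outside both lists, with a median excess of 4.77 on the 3'IVT array and -1.08 on the WT array. The 22 further probe sets in clusters of plastid-encoded members had medians of -1.96 and -4.94. This order is the reverse of that of the listed members by genome.

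For each member the wheat probe set with the most similar pair of values was found, by the distance between their excesses over bioB in both assays (2 values each). Z lay nearest to carbonic anhydrase Ta.5227.1.S1_at, which interconverts carbon dioxide and bicarbonate, at 0.065 log2 units. The second M probe set lay nearest to the cytochrome c biogenesis protein ccsA (TaAffx.4544.2.S1_s_at, 0.082), and D2 to NADH ubiquinone oxidoreductase (TaAffx.21659.1.A1_at, 0.31), the brightest wheat probe set of the WT array. The chlorophyll a/b binding protein lay nearest to the photosystem I apoprotein A2 (TaAffx.49006.1.A1_at, 0.18). The D1 probe set TaAffx.128757.3.S1_s_at was closest to a Yip1 domain protein (TaAffx.143997.1.S1_s_at, 0.22), and TaAffx.128757.1.S1_at to the hypothetical TaAffx.128418.16.S1_x_at (0.55). K, the first M probe set and the enhancer had unknown transcripts as nearest neighbours, TaAffx.128565.17.S1_at (0.21), TaAffx.128795.10.S1_x_at (0.30) and TaAffx.83397.1.S1_at (0.031).

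Photosystem I, the other photosystem of the thylakoid, had 9 probe sets in the same lists. Their median excess over bioB was 3.11 on the 3'IVT array (1.92 to 5.02) and 0.91 on the WT array (0.39 to 4.21), and both ranges overlapped those of the photosystem II members. The 2 probe sets for cytochrome b559 alpha, a photosystem II subunit outside the present set, had median excesses of 4.32 and 1.22, within the range of the plastid-encoded members in both assays. These sets were chosen by the same thresholds, and no test of a difference between them was possible.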

How the data were processed

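Signals of 2 single hybridizations were used, 1 per assay. According to the labels the authors made the deposited signal intensity with MAS5, which scales each array on its own, so signals were not compared between assays. Excesses over bioB were set side by side, and each is relative to the bioB value of its own array, not a transcript level. The study's lists rest on RMA summaries and Present calls, which were not used here beyond membership and putative functions. Linear signals were converted to log2 and set against the lowest bioB probe set of each array. Affymetrix controls (111 of 61290 probe sets) and reporter genes (64) were left out. The platform annotation gives 1 gene symbol to 1273 probe sets and none to 60017, and no probe set has several. Names were updated through RefSeq (IWGSC CS RefSeq v2.1), where 1272 matched by gene identifier.

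The members and lists were chosen with earlier results of these data known. Named were all members, cluster probe sets above either threshold, the annotated photosystem II probe sets and each member's nearest neighbour. No p-value was computed and the number of arrays limits the precision. Calculations ran in Python 3.11.15 (scipy 1.17.1, pandas 2.3.3, numpy 2.4.6) with plots by matplotlib 3.10.9, and the counting steps were tested on simulated data. Alternatives were other bioB values as threshold, quantile normalization, leaving out shared probe sets, counting clusters once, the mean, a pseudocount or filter of 100, and percentiles.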

Additional observations from a re-analysis of the deposited data

How the results depend on the processing

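No paired analysis was possible because each assay has 1 array. With the median bioB probe set as threshold the median excess of the plastid-encoded members was 4.10 for the 3'IVT array and 0.996 for the WT array, and of the nuclear-encoded members 0.93 and -0.18. With the highest bioB probe set these were 3.70 and 0.54, and 0.52 and -0.63. Then 5 members were above on the WT array and 4 in both, and 4 cluster probe sets on the WT array. The chlorophyll a/b binding protein fell below the WT threshold with the median (-0.47) and the highest bioB value (-0.92). With the highest value D2 lay at -0.093 on the 3'IVT array, and the first M probe set (-0.068), Z (-0.44) and the oxygen-evolving enhancer (-0.35) fell below the WT threshold. Of 54 values of single members under these settings and quantile normalization, 48 kept their sign.

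Quantile normalization reduced the WT medians to 1.19 and 0.49 and their difference to 0.70. Without shared probe sets, which leaves 3 plastid-encoded members and 1 nuclear-encoded member, the medians were 2.66 and -1.75 in the 3'IVT and 4.30 and 1.06 on the WT array, the differences 4.41 and 3.24, and the members above 3 in the 3'IVT, 4 in the WT and 3 in both assays. Of the cluster probe sets 6 and 3 were then above, and 1 annotated oxygen-evolving probe set on the 3'IVT array. Counting each cluster once, by its mean, gave plastid medians of 3.83 and 2.45, differences of 2.47 and 1.68, and 1 cluster of further probe sets above in the 3'IVT and 0 on the WT array. Means gave 3.80 and 2.47 for the plastid-encoded members and differences of 2.44 and 1.70. As percentiles minus that of the threshold, the nuclear median on the 3'IVT array was -0.065 percentage points. The plastid-encoded members had the higher central value in both assays under every setting run. Every setting used the listed members or a part of them, and another bioB threshold cannot change a difference of medians. The probe sets outside the members had the reverse order, with medians of 4.77 and -1.08 for the nuclear-encoded ones against -1.96 and -4.94 for those in plastid clusters. The cause of each shift was not tested, and 1 array per assay limits the precision. The pseudocount and the filter moved no median or count beyond the control spread or 1.5 times.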
